A study of Mus musculus with 3 samples.

Results

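The 9 genes described here encode dual-specificity phosphatases that act on mitogen-activated protein (MAP) kinases, *Dusp1*, *Dusp2*, *Dusp3*, *Dusp4*, *Dusp5*, *Dusp6*, *Dusp8*, *Dusp10* and *Dusp16*. They were chosen by symbol, and all 9 were found among the 32285 genes of the count matrices. The RNA of single bone marrow-derived macrophages (BMDMs) was counted in 1 droplet library for each of 3 conditions. All cells came from the bone marrow of female C3H/HeN mice of 6 to 8 weeks, grown in medium conditioned by L929 cells. For culture in general the paper describes pooled marrow. For the single-cell libraries it describes BMDMs derived from 3 mice and treated independently. PBS-treated cells (Ctrl) were collected at 4 hours, and cells given 1 µg/mL of purified *Borrelia burgdorferi* lipoproteins (*Bb*LP) were collected at 1 hour (LP1) or 4 hours (LP4). There was no library of PBS-treated cells at 1 hour, so LP1 and Ctrl also differ in the time of collection. The cells of 3 wells were pooled for each library, so a condition and its library cannot be told apart, and no test between conditions was possible.

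MAP kinases such as ERK, JNK and p38 are switched on by phosphate groups on a threonine and a tyrosine of their activation loop, and these phosphatases remove both. In macrophages, ligands of Toll-like receptors, bacterial lipoproteins among them, activate all of these kinases. The phosphatases differ in where they work and in which kinases they act on. *Dusp1*, *Dusp2*, *Dusp4* and *Dusp5* encode nuclear enzymes whose RNA is known to be made quickly after stimulation, *Dusp6* a cytoplasmic enzyme directed at ERK, and *Dusp8*, *Dusp10* and *Dusp16* enzymes directed mainly at JNK and p38. *Dusp3* encodes a small atypical enzyme without the kinase-binding domain of the others.

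The DNA before the start of 4 of these genes is shown because it holds the motif matches described next (*Dusp1*, *Dusp5*, *Dusp8* and *Dusp16*). Each stretch is RefSeq sequence of GRCm38.p6, the build also called mm10, which comes from the C57BL/6J strain and not from the C3H/HeN mice of these cells. It runs 5′ to 3′ on the strand of the gene, from 250 to 51 bases before the RefSeq start. They cover chr17:26508523-26508722 on the minus strand for *Dusp1*, chr19:53528895-53529094 on the plus strand for *Dusp5*, chr7:142095335-142095534 on the minus strand for *Dusp8* and chr6:134792679-134792878 on the minus strand for *Dusp16*. Capitals mark matches, on either strand, to the cAMP response element TGACGTCA, to its core part TGACG and to the CArG box bound by serum response factor.
Dusp1: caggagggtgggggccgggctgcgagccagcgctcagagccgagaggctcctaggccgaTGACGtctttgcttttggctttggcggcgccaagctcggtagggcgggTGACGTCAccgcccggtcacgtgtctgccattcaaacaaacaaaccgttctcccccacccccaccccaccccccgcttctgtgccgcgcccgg
Dusp5: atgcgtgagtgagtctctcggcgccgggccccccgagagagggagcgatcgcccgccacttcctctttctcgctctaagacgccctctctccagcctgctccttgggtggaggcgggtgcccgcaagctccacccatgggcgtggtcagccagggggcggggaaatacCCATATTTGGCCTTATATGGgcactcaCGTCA
Dusp8: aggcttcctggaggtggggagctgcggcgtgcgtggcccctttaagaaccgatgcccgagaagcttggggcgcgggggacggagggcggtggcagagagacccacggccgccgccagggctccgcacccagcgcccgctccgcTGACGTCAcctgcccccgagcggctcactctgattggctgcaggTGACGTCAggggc
Dusp16: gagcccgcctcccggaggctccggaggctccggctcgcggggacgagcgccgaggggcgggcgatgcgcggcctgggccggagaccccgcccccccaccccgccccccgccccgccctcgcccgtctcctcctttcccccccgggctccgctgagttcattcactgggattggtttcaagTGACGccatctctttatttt

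The motifs were searched on both strands of 32851 RefSeq windows that reach from 250 bases before a start to 50 bases after it. 8 of the 9 genes have a window, and *Dusp4* has none in the table. The full element TGACGTCA was in the windows of *Dusp1*, 143 bases before the start, and of *Dusp8*, 107 and 63 bases before the start, and in 1.79% of all windows. The core TGACG, which every TGACGTCA also contains, was in 5 of the 8 windows, those of *Dusp1*, *Dusp2*, *Dusp5*, *Dusp8* and *Dusp16*, and in 20.8% of all windows. Adjoining CArG boxes stood 82 and 72 bases before the start of *Dusp5*, against 1.63% of all windows with at least 1. None of the 8 windows held TGANTCA, the AP-1 motif (7.81% of all windows), CCGGAAG, an ETS motif (8.86%), GCGTGGGCG, an EGR motif (0.612%), or the NF-kB site (8.46%). A match describes the letters of the window and not binding, which was not measured.

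Of 16281 barcodes, 15806 cells passed the limits of over 500 UMIs (unique molecular identifiers, 1 for each RNA molecule counted), over 500 genes and a mitochondrial share below 5%, which left 4670 to 6071 cells in a library. This is more than the number of cells the authors state for the same limits. Cells of Ctrl, LP1 and LP4 held a median of 5133, 9343 and 11784 UMIs, with a median mitochondrial share of 1.97%, 2.84% and 3.17%. Their part in the results was not tested. All 9 macrophage markers listed for this work, *Csf1r*, *Adgre1* and *Cd68* among them, were present in each library, with a summed level of 10665 to 11966 CPM. The 9 neutrophil markers summed to 276 to 522 CPM, the 9 dendritic cell markers to 222 to 235 CPM, the 10 cell cycle markers to 651 to 835 CPM, the 6 stromal markers to 4.29 to 19.7 CPM and the 5 lymphocyte markers, with *Cd3e* at 0 in every library, to 0.616 to 0.819 CPM. Libraries shared 4 to 10 barcode sequences by pair.

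CPM, the unit of the levels, is the number of UMIs of a gene after scaling the kept cells of each library to the same total. 3′ UMI counting labels 1 end of an RNA, so in principle a longer spliced RNA is not counted more often, and CPM was not divided by length. Whether intronic reads were counted is not given, which bears on levels compared between genes with long and short introns. Brackets give 95% intervals, exact Poisson for CPM, exact conditional binomial for log2 ratios and exact binomial for shares. They cover counting error only and not the spread between cultures, which was not measured. In CPM summed over a library, fewer cells with a transcript and less of it per cell cannot be told apart, and shares of cells are therefore given separately.

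*Dusp1* encodes the phosphatase best known for restraining p38 and JNK in macrophages. Its level was 391 CPM in Ctrl (384 to 397), 598 CPM in LP1 (592 to 605) and 165 CPM in LP4 (162 to 168). It was thus highest at 1 hour and lower at 4 hours than in untreated cells, with intervals that do not overlap. The log2 ratio was 0.61 for LP1 over Ctrl (0.59 to 0.64), a 1.53-fold higher level, and -1.24 for LP4 over Ctrl (-1.28 to -1.21). From LP1 to LP4 the level was 3.63 times lower. *Dusp1* (ENSMUSG00000024190) lies on the minus strand of chromosome 17 between 26505590 and 26562128. Most of this span belongs to 1 transcript alone, and the principal transcript covers 26505590 to 26508519. The gene *Ergic1*, which overlaps the far end on the opposite strand, held 1819, 2476 and 2725 UMIs in Ctrl, LP1 and LP4, against 13948, 31406 and 10134 for *Dusp1*.

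*Dusp2* (ENSMUSG00000027368, plus strand of chromosome 2, from 127336159 to 127338376) encodes a nuclear phosphatase of blood cells. It had 131 CPM in Ctrl (127 to 135), 179 CPM in LP1 (175 to 183) and 90.3 CPM in LP4 (87.9 to 92.7). The order of the libraries was that of *Dusp1*, in a narrower range, with 1.37 times Ctrl in LP1 and 1.45 times lower than Ctrl in LP4.

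*Dusp4* (ENSMUSG00000031530, plus strand of chromosome 8, from 34807297 to 34819894) encodes a nuclear phosphatase related to DUSP1. It had 181 CPM in Ctrl (177 to 186), 196 CPM in LP1 (192 to 200) and 39.6 CPM in LP4 (38.1 to 41.2). Ctrl and LP1 lay within 1.08 times of each other, and LP4 was 4.57 times lower than Ctrl.

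*Dusp5* (ENSMUSG00000034765, plus strand of chromosome 19, from 53529109 to 53542431) encodes a nuclear phosphatase directed at ERK. It had 236 CPM in Ctrl (231 to 241), 227 CPM in LP1 (223 to 231) and 24.0 CPM in LP4 (22.8 to 25.3). The log2 ratio of LP1 over Ctrl was -0.06 (-0.10 to -0.02), and its sign depended on the scaling, since TMM gave 0.01 and median of ratios 0.02. In LP4 the level was 9.81 times lower than in Ctrl, with a log2 ratio of -3.29 (-3.38 to -3.21). That put it lower than all but 0.399% of the 8019 genes compared, the lowest place of the 9 genes. The antisense gene AC137853.2 over its start held 52, 51 and 9 UMIs in Ctrl, LP1 and LP4, against 8418, 11898 and 1476 for *Dusp5*.

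*Dusp6* was the one ERK-directed cytoplasmic enzyme of the set, and its RNA was scarce. The gene (ENSMUSG00000019960) lies on the plus strand of chromosome 10 from 99263231 to 99267489. It had 180 UMIs or 5.04 CPM in Ctrl (4.33 to 5.84), 447 UMIs or 8.52 CPM in LP1 (7.75 to 9.35) and 648 UMIs or 10.6 CPM in LP4 (9.76 to 11.4). The log2 ratios to Ctrl were 0.76 in LP1 (0.50 to 1.01) and 1.07 in LP4 (0.82 to 1.31). *Dusp6* was the member with the largest ratio of LP1 over Ctrl, though its interval contains that of *Dusp1* (0.59 to 0.64) and overlaps those of *Dusp8* and *Dusp10*. At 4 hours *Dusp6* was still above Ctrl, where *Dusp5* was far below it.

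The 3 genes for JNK- and p38-directed enzymes did not share a pattern. *Dusp8* (ENSMUSG00000037887, minus strand of chromosome 7, from 142079490 to 142095843) had 4.48 CPM in Ctrl (3.82 to 5.23), 5.41 CPM in LP1 (4.80 to 6.08) and 1.22 CPM in LP4 (0.961 to 1.53). These rest on 160, 284 and 75 UMIs, and the ratio of LP1 over Ctrl, 0.27 on the log2 scale (-0.01 to 0.56), was not distinguishable from 0 at this depth. LP4 was 3.67 times lower than Ctrl.

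*Dusp10* (ENSMUSG00000039384, plus strand of chromosome 1, from 184013302 to 184075636) went the other way. It had 127 UMIs or 3.56 CPM in Ctrl (2.97 to 4.23), 267 UMIs or 5.09 CPM in LP1 (4.50 to 5.74) and 524 UMIs or 8.53 CPM in LP4 (7.82 to 9.30). Its log2 ratio to Ctrl was 0.52 in LP1 (0.21 to 0.83) and 1.26 in LP4 (0.98 to 1.55). The latter was the largest ratio of LP4 over Ctrl among the 9 genes, with an interval that overlaps that of *Dusp6* (0.82 to 1.31).

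*Dusp16* (ENSMUSG00000030203, minus strand of chromosome 6, from 134715468 to 134792625) encodes a phosphatase that moves between cytoplasm and nucleus and is directed at JNK. It had 143 CPM in Ctrl (139 to 147), 145 CPM in LP1 (142 to 149) and 244 CPM in LP4 (240 to 248). In CPM, Ctrl and LP1 could not be told apart, with a log2 ratio of 0.02 (-0.03 to 0.07). TMM gave 0.09 and median of ratios 0.10, both above this counting interval. LP4 was 1.70 times higher than Ctrl. *Dusp16* was the only one of the 6 members above 10 CPM in Ctrl that had its highest level in LP4.

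*Dusp3* (ENSMUSG00000003518, minus strand of chromosome 11, from 101971143 to 101987013) had 163 CPM in Ctrl (159 to 167), 147 CPM in LP1 (144 to 151) and 98.9 CPM in LP4 (96.4 to 101). Summed over a library, it was the only member below Ctrl at both times under each scaling tried. Its log2 ratio was -0.15 in LP1 (-0.20 to -0.10) and -0.72 in LP4 (-0.77 to -0.67). In LP1 TMM and median of ratios both gave -0.07, closer to no difference and outside this counting interval. In LP4 TMM gave -0.55 and median of ratios -0.52.

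**Figure D1:**
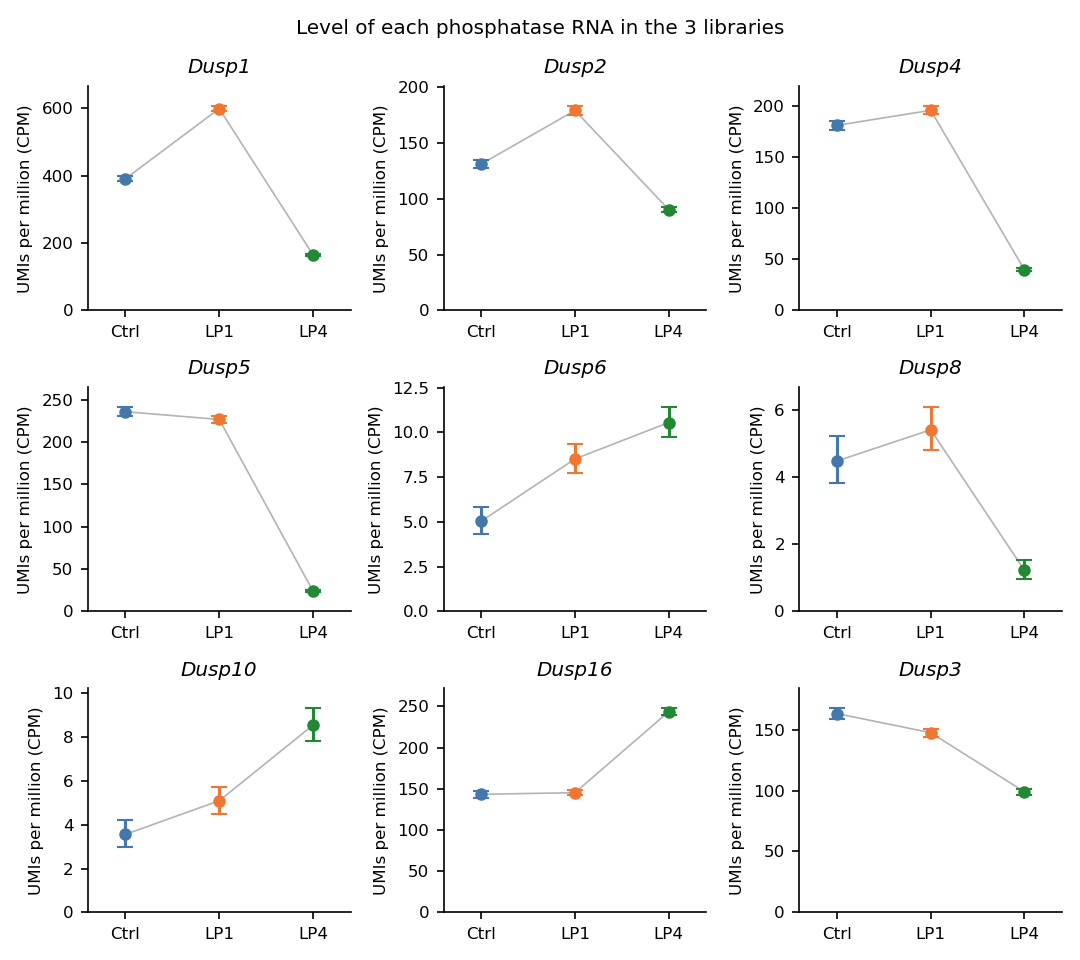
Level of each of the 9 phosphatase RNAs in the 3 libraries, in CPM (vertical axes starting at 0), where points are the libraries Ctrl, LP1 and LP4 and bars are exact Poisson 95% intervals that cover counting error only. *Dusp1* and *Dusp2* peak in LP1, *Dusp4*, *Dusp5* and *Dusp8* drop in LP4, *Dusp6* and *Dusp10* climb over both times, and *Dusp16* climbs only in LP4, to 244 CPM.

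In Ctrl the order of the levels in CPM was *Dusp1* (391), *Dusp5* (236), *Dusp4* (181), *Dusp3* (163), *Dusp16* (143), *Dusp2* (131), *Dusp6* (5.04), *Dusp8* (4.48) and *Dusp10* (3.56). Neighbours in this order had separate intervals for the first 6 genes, while those of *Dusp6* and *Dusp8* overlapped and so did those of *Dusp8* and *Dusp10*. In LP4 the order began with *Dusp16* (244), *Dusp1* (165), *Dusp3* (98.9) and *Dusp2* (90.3). *Dusp5*, in the second place in Ctrl, stood at 24.0 CPM and in the sixth.

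Against Ctrl at 1 hour, 2 of the 9 genes were higher by at least 1.5 times, *Dusp1* and *Dusp6*, and none was lower. Of the 7747 genes with at least 10 CPM in Ctrl or LP1, 4.12% were higher and 2.74% lower by this measure. 6 of the 9 genes pass that limit on level, and of these 1, *Dusp1*, was higher and 0 were lower. The median log2 ratio was -0.02 over all genes compared, 0.27 over the 9 genes and 0.07 over the 6 that pass the limit on level. TMM gave 5.50% and 1.79%, and median of ratios 5.59% and 1.76%. With either scaling, and with a mean of cell shares, *Dusp10* also passed 1.5 times, which made 3 higher members. None of the 9 genes differed by 2 times in either direction, as 0.697% of all genes did upward and 0.465% downward. *Dusp1* stood above 96.4% of these genes, *Dusp2* above 93.0% and *Dusp4* above 70.0%.

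Against Ctrl at 4 hours, 3 of the 9 genes were higher by at least 1.5 times, *Dusp6*, *Dusp10* and *Dusp16*, and 5 were lower, *Dusp1*, *Dusp3*, *Dusp4*, *Dusp5* and *Dusp8*. With at least 10 CPM in Ctrl or LP4 were 7 of the 9 genes, and of these 2 were higher and 4 lower. Of the 8019 genes at that level, 20.2% were higher and 23% lower, so that differences of this size were common at this time. TMM moved this split to 26.5% and 16.3%, and median of ratios to 27.8% and 15.0%, with a shift of the median of all genes from -0.07 to 0.10 and 0.13. With either, *Dusp3* came under 1.5 times and the other 4 stayed lower by more than that. At a limit of 2 times, 10.6% of all genes were higher and 9.91% lower, and the 4 genes *Dusp1*, *Dusp4*, *Dusp5* and *Dusp8* were lower by at least that and *Dusp6* and *Dusp10* higher. The median over the 9 genes was -0.72, against -0.07 over all genes.

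From 1 to 4 hours, *Dusp10* and *Dusp16* were higher by at least 1.5 times, and *Dusp1*, *Dusp2*, *Dusp4*, *Dusp5* and *Dusp8* were lower. With at least 10 CPM in LP1 or LP4 were 7 of the 9 genes, and of these 1 was higher and 4 lower. Of the 7956 genes at that level, 16.6% were higher and 18.1% lower. TMM gave 19.4% and 14.5%, and median of ratios 20.5% and 13.4%. By 2 times, 8.75% of all genes were higher and 7.55% lower, and of the members none was higher and the 4 genes *Dusp1*, *Dusp4*, *Dusp5* and *Dusp8* were lower, with *Dusp2* at 1.98 times. *Dusp3*, 1.49 times lower, just missed the limit of 1.5 times. This comparison and those with Ctrl share libraries and are not independent of each other. *Dusp4* had a log2 ratio of -2.30 (-2.37 to -2.24) and *Dusp5* one of -3.24 (-3.32 to -3.16), and these place them below 99.0% and 99.6% of all genes. *Dusp16*, at 0.75 (0.71 to 0.79), lay above 87.6%.

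**Figure D2:**
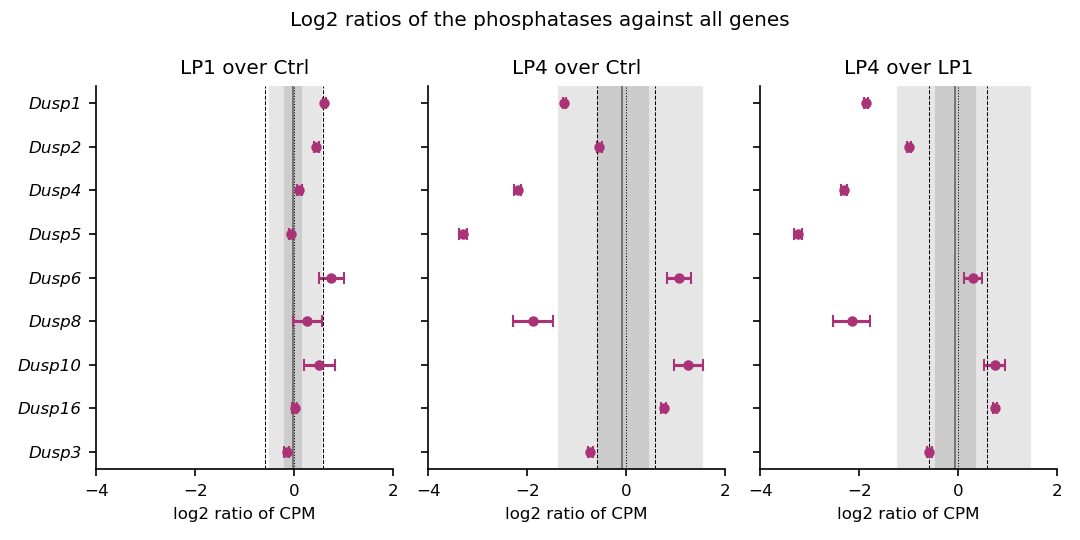
Log2 ratio of CPM (horizontal axes) of the 9 phosphatases for LP1 over Ctrl, LP4 over Ctrl and LP4 over LP1, as points with exact conditional binomial 95% intervals. Light and dark grey bands hold the central 90% and 50% of all genes with at least 10 CPM in 1 of the libraries compared, the grey line is their median, and dashed lines mark 1.5 times. *Dusp4* (-2.19), *Dusp5* (-3.29) and *Dusp8* (-1.88) lie left of the light band in LP4 over Ctrl.

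The summed level of the 9 genes was 1258 CPM in Ctrl, 1512 CPM in LP1 and 682 CPM in LP4. Without *Dusp1* it was 868, 913 and 517 CPM, so that most of the difference between Ctrl and LP1 was in *Dusp1*. *Dusp1* made up 31.1% of the UMIs of the 9 genes in Ctrl (30.6 to 31.5), 39.6% in LP1 (39.2 to 39.9) and 24.2% in LP4 (23.8 to 24.6). *Dusp16* made up 11.4% in Ctrl (11.1 to 11.7), 9.61% in LP1 (9.41 to 9.82) and 35.7% in LP4 (35.3 to 36.2), and was the largest part of the family at 4 hours. The share of *Dusp5* went from 18.7% in Ctrl and 15.0% in LP1 to 3.53% in LP4, and that of *Dusp4* from 14.4% and 12.9% to 5.81%. *Dusp2* (10.4%, 11.8% and 13.2%) and *Dusp3* (13.0%, 9.75% and 14.5%) had shares within 1.5 times of each other in the 3 libraries. *Dusp6*, *Dusp8* and *Dusp10* each made up at most 1.55% in any library.

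**Figure D3:**
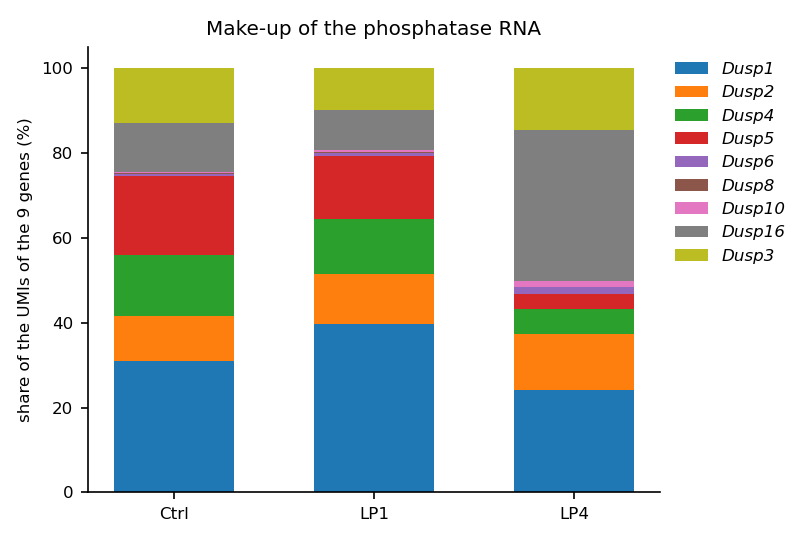
Make-up of the phosphatase RNA in the libraries Ctrl, LP1 and LP4, where each bar is split by the share of each gene in the UMIs of the 9 genes (percent). *Dusp1* is the largest part in Ctrl and LP1 (31.1% and 39.6%), and *Dusp16* in LP4 (35.7%).

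To count the cells in which a phosphatase was seen, each cell was thinned to 2000 UMIs, since the libraries differ in depth, and cells with fewer (122 in Ctrl, 13 in LP1 and 45 in LP4) were left out. *Dusp1* was seen in 52.2% of Ctrl cells (50.9 to 53.5), 66.0% of LP1 cells (64.6 to 67.3) and 24.8% of LP4 cells (23.6 to 26.1). At full depth these shares were 78.9%, 95.3% and 61.6%. The order of the libraries was the same on both scales, and it is that of the levels.

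*Dusp5* was seen in 34.7% of thinned cells in Ctrl (33.5 to 35.9), 33.2% in LP1 (31.9 to 34.6) and 4.82% in LP4 (4.22 to 5.48), or 61.4%, 75.6% and 17.3% at full depth. *Dusp4* was seen in 26.5%, 29.6% and 6.79% of thinned cells, and 53.6%, 72.0% and 30.3% at full depth. *Dusp16* was seen in 24.5% (23.4 to 25.6), 24.3% (23.1 to 25.5) and 37.5% (36.1 to 38.9), or 49.2%, 67.5% and 85.0% at full depth. For *Dusp16* and *Dusp5* the higher share of LP1 cells at full depth was not seen after thinning.

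*Dusp2* was seen in 20.8%, 26.6% and 15.2% of thinned cells (42.7%, 63.1% and 39.5% at full depth) and *Dusp3* in 27.0%, 25.8% and 17.1% (55.3%, 71.4% and 63.4%). The higher shares of *Dusp3* in LP1 and LP4 than in Ctrl at full depth were not seen after thinning either. The scarce genes were seen in few cells at the thinned depth. Thinned shares were 0.706%, 0.930% and 1.43% for *Dusp10* (1.84%, 4.28% and 8.22% at full depth) and 0.773%, 1.11% and 0.259% for *Dusp8* (2.50%, 5.21% and 1.41%). For *Dusp6* they were 1.03%, 1.86% and 1.73% (2.87%, 7.76% and 10.3%), with overlapping intervals of LP1 and LP4. Thinned to 1000 UMIs, LP1 and LP4 had 0.790% and 1.42%. At 4000 UMIs they had 3.22% and 3.81%, with intervals that overlapped. Both pairs were in the order of the levels in CPM, and no order is read from the shares at 2000 UMIs.

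**Figure D4:**
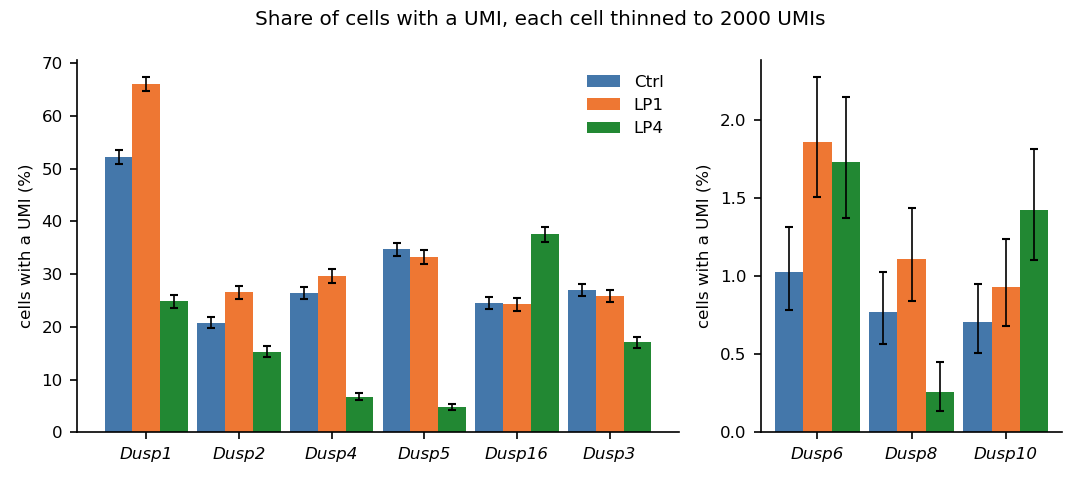
Share of cells with at least 1 UMI of each phosphatase (vertical axes, percent, from 0) after thinning every cell to 2000 UMIs, for Ctrl, LP1 and LP4, with exact binomial 95% intervals that cover counting error only. The right panel has its own scale for the 3 scarce genes. *Dusp1* is seen in 66.0% of LP1 cells and 24.8% of LP4 cells, and *Dusp5* in 4.82% of LP4 cells.

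Among cells that were neutrophil-like by their markers, with a median of 3947, 6261 and 9262 UMIs before thinning against 5077, 9065 and 11573 in macrophage-like cells, *Dusp1* was seen in 9.52% of 21 cells in Ctrl, 14.3% of 21 in LP1 and 3.57% of 28 in LP4. *Dusp4* was seen in 0 of 21, 0 of 21 and 0 of 28, which allows a share of up to 16.1%, 16.1% and 12.3%. The macrophage-like cells had shares of *Dusp4* of 26.8%, 29.7% and 6.79%, so those of Ctrl and LP1 lie above this limit and that of LP4 does not. For *Dusp2* the neutrophil-like shares were 23.8%, 19.0% and 14.3%, within counting error of those of all cells, and for *Dusp6* 4.76%, 4.76% and 7.14%, and for both genes RNA made by these cells and free RNA cannot be told apart from these values. For *Dusp16* they were 14.3%, 9.52% and 7 of 28 cells, and for *Dusp5* 9.52%, 0 of 21 cells (up to 16.1%) and 7.14% (0.877 to 23.5). The share of *Dusp5* in all LP4 cells, 4.82%, was not above that of the neutrophil-like cells. At this depth the share alone does not separate it from free RNA, whose part was not tested.

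The spread from cell to cell was described by the ratio of variance to mean of the thinned counts, which is near 1 for counts scattered at random. *Dusp3* was closest to it among the genes of high level, at 1.02 in Ctrl, 1.04 in LP1 and 1.06 in LP4. *Dusp1* had 1.33, 1.37 and 1.41, and *Dusp2* had 1.26, 1.34 and 1.61, the largest value of the 9 genes. The 10% of cells with the most UMIs of *Dusp2* held 59.1% of them in Ctrl, 54.0% in LP1 and 75.4% in LP4. Thinned cells with at least 3 UMIs of *Dusp2* made up 0.857%, 1.82% and 1.28% of the libraries. In LP4, where the level of *Dusp2* was lower than in Ctrl, the share of such cells was not. The part held by the leading cells also depends on the level of a gene, and for *Dusp1* it was 37.2%, 31.8% and 56.8%.

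The cells were clustered on genes that differ by less than 1.5 times between libraries, without the 9 genes and all listed genes, to describe the phosphatases within like cells. Of 9 clusters, A to F each held 50 or more cells from every library, and these 6 were compared. A to D (5305, 4674, 2248 and 2226 cells) were macrophage-like from their markers, led by *Ccnd1* and *Psd3* (A), *Egr3*, *Nr4a3*, *Ms4a6b* and *Apoe* (B), *Fabp4* and *Hal* (C) and *Mgll* and *Eef1a2* (D). E (1002 cells) was led by histone and mitosis genes such as *Hist1h1b* and *Aspm*, and F (206 cells) was dendritic cell-like, led by MHC class II genes such as *H2-Eb1*. E stayed unnamed because 2 cell cycle markers were among its leading genes. At least 50% of its cells held each of 7 macrophage markers, the same 7 as in A and B. Names were rebuilt from markers and may differ from those of the authors. The values are descriptions, and cells of a library are not replicates.

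*Dusp1* was higher in LP1 than in Ctrl in 6 of 6 clusters, by 0.38 (F) to 0.89 (D) on the log2 scale, and lower in LP4 than in Ctrl in 6 of 6, from -1.69 (C) to -0.62 (F). In Ctrl its level was lowest in D at 248 CPM (235 to 261) and highest in B at 531 CPM (515 to 547). In LP1 the 2 clusters had 459 and 773 CPM, and in LP4 106 and 199 CPM. *Dusp4* was lower in LP4 than in Ctrl in 6 of 6 clusters, from -2.68 (C) to -1.55 (B), and *Dusp3* in 6 of 6, from -0.92 (B) to -0.50 (C).

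*Dusp5* was lower in LP4 than in Ctrl in 6 of 6 clusters, but by very different amounts. In D it had 178 CPM in Ctrl (167 to 189), 203 CPM in LP1 (194 to 212) and 7.08 CPM in LP4 (5.62 to 8.80), and LP4 over Ctrl was -4.65 on the log2 scale (-4.99 to -4.32). In the dendritic cell-like cluster F it had 324 CPM (273 to 381), 294 CPM (253 to 340) and 82.0 CPM (62.9 to 105), and LP4 over Ctrl was -1.98 (-2.43 to -1.54). The highest and lowest cluster differed by 1.82 times in Ctrl and by 11.6 times in LP4.

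*Dusp2* was lower in LP4 than in Ctrl in 5 of 6 clusters, down to -1.20 in E, and higher in B. There it had 148 CPM in Ctrl (140 to 157), 194 CPM in LP1 (186 to 203) and 174 CPM in LP4 (167 to 181), which put LP4 over Ctrl at 0.23 on the log2 scale (0.13 to 0.34). The highest and the lowest cluster in LP4, B at 174 CPM and E at 39.2 CPM, differed by 4.44 times, against 1.69 times between the extremes in Ctrl. In F the interval of LP4 over Ctrl, -0.71 to 0.27, included 0.

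In 6 of 6 clusters *Dusp16* had a higher level in LP4 than in Ctrl, from 0.41 (F) to 1.17 (D). Its level in D was the lowest in each library, at 74.7 CPM in Ctrl, 89.5 CPM in LP1 and 168 CPM in LP4. The ratio of *Dusp10* in LP4 over Ctrl was above 0 in 6 of 6 clusters, with an interval that reached 0 in D. In B it went from 10 UMIs or 1.27 CPM in Ctrl (0.607 to 2.33) and 22 UMIs or 2.14 CPM in LP1 (1.34 to 3.24) to 155 UMIs or 11.8 CPM in LP4 (10.0 to 13.8). Its ratio of LP4 over Ctrl there was 3.22 (2.30 to 4.31), against 0.62 (0.21 to 1.05) in A, where it had 4.76 CPM in Ctrl. In Ctrl, B had the lowest level of *Dusp10* of the 6 clusters, and in LP4 the second highest after F (26.4 CPM from 20 UMIs). The ratio of *Dusp6* was also above 0 in 6 of 6 clusters, with intervals that reached 0 in C and F, and that of *Dusp8* was below 0 in the 5 with a UMI in both libraries. At a resolution of 0.8, the ratio of *Dusp6* was below 0 in 2 of 9 clusters (-0.17 and -0.11) and that of *Dusp10* in 1 of the 8 with a value (-0.07), each with an interval that includes 0. In F at 0.5 *Dusp8* had 3 UMIs in Ctrl and 0 in LP4, which allows up to 3.97 CPM at a floor of 3 counts.

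Cluster B rests on the resolution of the clustering. At a resolution of 0.3 a cluster of 4876 cells had the same leading genes. Its log2 ratios of LP4 over Ctrl were 0.22 (0.12 to 0.32) for *Dusp2* and 3.28 (2.37 to 4.37) for *Dusp10*. At a resolution of 0.8 the leading genes of B stood in 2 clusters. The first, led by *Egr3* with *Nr4a3* and *Apoe*, had 116 of 2900 cells from LP4, and the second, with *F13a1* and *Ms4a4a*, had 1175 of 1324, so that library and type of cell cannot be told apart there. In the first, *Dusp2* had 141 CPM in Ctrl and 197 CPM in LP4, and *Dusp10* had 8 UMIs in Ctrl and 3 in LP4. In the second, *Dusp2* had 255 CPM in Ctrl and 166 CPM in LP4, and *Dusp10* had 0 UMIs in Ctrl and 166 in LP4, at 14.5 CPM. These 0 UMIs rest on 80 Ctrl cells and do not show that *Dusp10* was absent there. *Dusp16* had 189 and 205 CPM in the first and 180 and 349 CPM in the second. For LP4 over Ctrl, *Dusp2* had a log2 ratio of 0.48 (0.26 to 0.70) in the first of these clusters and -0.62 (-0.93 to -0.30) in the second. Ctrl had 1613 cells in the first and 80 in the second, and LP4 had 116 and 1175. The higher *Dusp2* of LP4 in B at a resolution of 0.5 is therefore not placed in either cluster. Of the *Dusp10* UMIs of LP4 in the pair, 166 were in the second and 3 in the first, which held fewer LP4 cells. In the first, the log2 ratio of *Dusp10* was 1.18 (-1.37 to 3.24), an interval that includes 0.

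**Figure D5:**
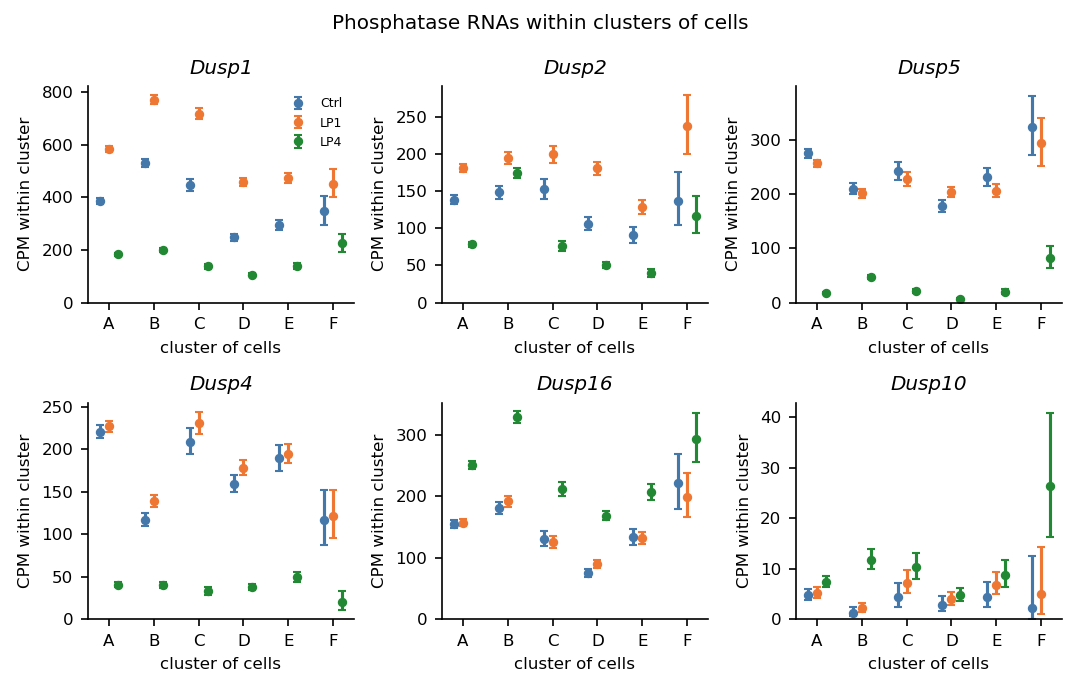
CPM of 6 phosphatases (vertical axes, from 0) within the 6 clusters of cells A to F (horizontal axes), where points are the cells of 1 library in 1 cluster (Ctrl, LP1 and LP4) and bars are exact Poisson 95% intervals for counting error. *Dusp1* is highest in LP1 in every cluster, *Dusp2* in LP4 stands at 174 CPM in B and 39.2 CPM in E, and *Dusp5* in LP4 ranges from 7.08 CPM in D to 82.0 CPM in F.

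The genes whose counts followed those of the 4 members with the most UMIs were ranked in each library by Pearson's r across cells, over 3050 to 3128 genes with at least 50 CPM. All r were low, the cells of a library share their depth and cell type mix, and the values are descriptions. For *Dusp1* the first gene was *Egr1*, an immediate early transcription factor, in Ctrl (r = 0.24, 6071 cells) and LP1 (r = 0.26, 5065 cells), followed by *Klf6* and *Rcan1* in Ctrl and by *Cxcl2*, *Klf6* and *Junb* in LP1. In LP4 it was *Cd14*, the lipopolysaccharide co-receptor (r = 0.18, 4670 cells), then *Traf1* and *Ezr*, and none of the first 5 was shared with the other libraries.

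For *Dusp16* the first genes in LP4 were *Ptprj* (r = 0.26), *Nfkb1*, which encodes an NF-kB subunit (r = 0.26), and *Pde4b* (r = 0.24). In LP1 they were *Spag9*, which encodes a scaffold of JNK signalling (r = 0.18), *Cxcl2* and *Nfkb1*. For *Dusp5*, *Odc1*, the rate-limiting enzyme of polyamine synthesis, was first in Ctrl (r = 0.17) and LP1 (r = 0.19), and *Errfi1*, an inhibitor of EGF receptor signalling, in LP4 (r = 0.27), ahead of *Ier3* (r = 0.23). For *Dusp3*, *Ctsd*, *Lpl* and *Cd36* were among the first 5 in each library, with r from 0.13 to 0.26.

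The other genes of the pathway were taken from lists and counted over those with at least 10 CPM in 1 of the libraries compared, beside the percentages of all genes given above. Of the MAP kinases, 1 of 5 was higher by at least 1.5 times in LP1 and 1 of 5 in LP4, with none lower. *Mapk3*, which encodes ERK1, had 54.3 CPM in Ctrl, 89.1 CPM in LP1 and 98.8 CPM in LP4, log2 ratios of 0.71 (0.64 to 0.79) and 0.86 (0.79 to 0.94). *Mapk14*, which encodes p38 alpha, had log2 ratios of -0.24 (-0.30 to -0.17) and -0.34 (-0.40 to -0.28). Of the 6 MAP kinase kinases none differed by 1.5 times in LP1, and 2 were higher in LP4 with none lower, *Map2k1* (59.3 CPM in Ctrl and 187 CPM in LP4, log2 ratio 1.65) for ERK and *Map2k4* (65.9 and 143 CPM, 1.12) for JNK.

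Of the kinases above them and their adaptors, 0 of 15 differed by 1.5 times in LP1, where *Map3k1* was lowest at -0.52. In LP4, 4 of 16 were higher and 5 lower. *Map3k8*, which encodes the kinase TPL2 of Toll-like receptor signalling to ERK, had a log2 ratio of 1.68 (1.58 to 1.78) and *Tab2* one of 1.29 (1.24 to 1.34), while *Map3k1* had -2.42 (-2.52 to -2.32) and *Map3k14* -1.33 (-1.50 to -1.15). Of 8 kinases that MAP kinases activate, 1 was higher in LP1 and none lower, and in LP4 none was higher and 3 were lower. *Rps6ka2*, which encodes a ribosomal S6 kinase downstream of ERK, was the one higher in LP1 (0.59, 0.52 to 0.67) and the lowest in LP4 (-2.64, -2.78 to -2.51), and *Rps6ka1* had -0.42 and -1.77.

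Among 8 other inhibitors of MAP kinase signalling, none differed by 1.5 times in LP1, and in LP4 1 was higher and 3 were lower. *Spred1* and *Spred2* encode related inhibitors of the Ras to ERK route and lay on opposite sides, with log2 ratios of LP4 over Ctrl of 1.16 (1.12 to 1.20) and -2.32 (-2.45 to -2.19). *Ppm1d*, a phosphatase of p38 and DNA damage signalling, had -1.02 (-1.20 to -0.83). Of the 16 other dual-specificity phosphatases, 4 or 5 had 10 CPM. *Dusp12* was higher in LP1 (0.62, 0.41 to 0.84). In LP4 *Dusp7*, which encodes a cytoplasmic ERK phosphatase close to DUSP6, was higher (0.68, 0.55 to 0.82) and *Dusp23* lower (-1.23, -1.44 to -1.03). *Dusp7* was also higher than in Ctrl in LP1, by 0.32 on the log2 scale (0.18 to 0.47).

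The immediate early genes are known, as *Dusp1*, *Dusp4* and *Dusp5* are, for fast and passing transcription after a stimulus. In LP4, 0 of 11 were higher than in Ctrl by at least 1.5 times and 7 were lower by at least that. The median log2 ratio was -1.78, with *Fosb* (-6.41) and *Fos* (-4.86) the lowest. *Fosl2* and *Phlda1* had the largest ratios, 0.22 and 0.12. In LP1, 2 of 11 were higher, *Phlda1* (1.31) and *Junb* (1.02), and 2 were lower, *Fosb* (-0.68) and *Fos* (-0.62), so *Dusp1* was higher at 1 hour while *Fos* was lower. Of the cytokine RNAs and the *Zfp36* family, which encodes proteins that promote decay of such RNAs, 4 of 11 were higher in LP1 and none lower, with a median of 0.41 and *Ccl4* (1.35) and *Ccl3* (1.00) in front. In LP4, 6 of 12 were higher and 2 lower, with a median of 0.87. *Il6* (4.50, 4.04 to 5.00) and *Ccl4* (4.47, 4.43 to 4.52) had the largest ratios, and *Tnf* (-1.58) and *Cxcl2* (-1.56) the lowest.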

How the data were processed

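The gene by cell count matrices of 3 droplet libraries were used as the authors deposited them. They hold whole UMI counts that the authors made with Cell Ranger 7.1.0 and the mm10 genome, per the submitters' processing notes, for barcodes called as cells and with no normalization. Whether intronic reads were counted is not given in the sources used here. It bears on genes with long introns or overlapping neighbours. Counting UMIs removes copies made by PCR.

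Cells with over 500 UMIs, over 500 genes and under 5% mitochondrial UMIs were kept, and doublets were not removed. UMIs of the kept cells were summed per library and scaled to CPM. A gene was counted as higher or lower at 1.5 times, and for all genes a level of 10 CPM in 1 of the libraries compared was required. The 9 genes were counted whatever their level. With 1 library per condition no p-value was computed, and 95% intervals and the floor of 3 counts cover counting error only. The kept cells summed to 35688939 UMIs (Ctrl), 52475723 UMIs (LP1) and 61402275 UMIs (LP4).

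Cells were thinned without replacement to 2000 UMIs. Clusters came from 2000 variable genes among 5261 that differed by less than 1.5 times between libraries, centred within each library, with 30 principal components, 20 neighbours and Leiden at a resolution of 0.5. Clusters were named from marker lists, with at least 3 markers. The other pathway genes were taken from lists, and those named are the 2 with the highest and the 2 with the lowest ratio in a list, or fewer. Genes with similar counts were ranked by Pearson's r over cells, on genes of at least 50 CPM, for the 4 members with the most UMIs. The alternatives were TMM and median of ratios scaling, other limits on cells, doublet scores from Scrublet and a mean of cell shares. Other thinning depths, no thinning, other limits on level and other resolutions were also tried. The log2 ratios, their intervals and the thinning were tested on simulated counts, and the other steps were not. The 9 genes and the lists were chosen with earlier results of these data known.

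Clustering was run in scanpy 1.11.5, which called leidenalg 0.10.2 on igraph 0.11.9 graphs. Intervals came from scipy 1.17.1, tables from pandas 2.3.3 and numpy 2.4.6, and figures from matplotlib 3.10.9, all under Python 3.11.15 with scikit-learn 1.9.0. TMM factors alone came from edgeR 4.0.16 under R 4.3.3.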

Additional observations from a re-analysis of the deposited data

How the results depend on the processing

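No sign of a ratio above or below 0 that had passed 1.5 times was reversed under any of the alternatives tried. With a limit of 2 times in place of 1.5 times, the count of higher members was 0 in LP1 over Ctrl and 0 from LP1 to LP4, against 2 in each with 1.5 times. The other 64 of 66 counts of members stayed within 1.5 times of their value. Of 270 log2 ratios recomputed, 226 stayed within their counting interval and 44 moved out of it. Among those that moved was every ratio of *Dusp1*, *Dusp2*, *Dusp3*, *Dusp4*, *Dusp5* and *Dusp16* under TMM and under median of ratios. The counting intervals of these genes therefore do not cover the choice of scaling. The one sign that turned was that of *Dusp5* in LP1 over Ctrl, near 0, under TMM and median of ratios. Shares of cells moved with another thinning depth or without thinning in 80 of 81 cases, as fewer UMIs per cell give fewer cells with 1. The share of clusters in which a member was higher or lower moved with the resolution in 40 of 108 cases. The percentage of all genes that passed 1.5 times moved with the limit on level in 9 of 12 cases. No paired analysis was possible because each condition has 1 library, and for the same reason no library could be left out. Depth limits *Dusp6*, *Dusp8* and *Dusp10*, each with at most 648 UMIs in a library.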
